A study of Homo sapiens with 4 samples.

Results

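RNA of a DDX21 knockout derivative of H1299 (DDX21 KO) was set against RNA of H1299 itself, both after transfection with miR-34a. H1299 is a human line of non-small cell lung cancer. Both transfected groups received 25 nM RNA with the lipofectamine RNAiMAX reagent and were harvested after 48 h. The same lines were also sequenced non-treated, as non-treated DDX21 KO and non-treated H1299, and these libraries served as a second comparison of the lines that shares no library with the first. The labels do not say that non-treated cells received a control RNA, how many clones the knockout line stands for, or which part of DDX21 was edited. Each of the 4 groups had 1 library, so no difference below has a replicate check, no p-value was computed within a state, and every statement compares libraries. A gene entered when it had 50 or more estimated counts in either transfected library, which 13621 of the 46427 genes in the deposited table had. Ratios are given as log2 of DDX21 KO over H1299, and the values in brackets are 95% counting intervals, which cover counting error only. Calls of higher or lower were made for ratios of at least 2-fold whose interval excluded no change. CPM is a gene's count relative to the scaled size of its library. A gene that entered only through the library where it was high had to differ, so shares of lists were also taken among genes with 50 or more counts in both libraries. In bulk RNA, fewer cells with a transcript and less of it per cell cannot be told apart.

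DDX21 is a DEAD-box RNA helicase of the nucleolus that takes part in the transcription of ribosomal DNA, in the processing of ribosomal RNA with small nucleolar RNAs (snoRNAs), and, outside the nucleolus, in the release of the elongation factor P-TEFb from the 7SK complex. miR-34a is a microRNA that pairs with 3' UTRs through its seed and is known to lower mRNAs of the cell cycle and of growth factor receptors. The mature strand of miR-34a (RefSeq, GRCh38.p14, chromosome 1, minus strand) is shown with its seed, bases 2 to 8, in capitals.
hsa-miR-34a-5p: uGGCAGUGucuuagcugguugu

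Sites for that seed in 3' UTRs of reported targets are shown because these mRNAs were compared between the transfected lines below. The letters searched were CACTGCC, the complement of the seed, and they are in capitals in the 25 bases printed from the longest 3' UTR of each gene in GENCODE 29 (GRCh38). The search covered 7 genes: CDK4 and BCL2 held no match, although BCL2 held 1 match to the shifted letters ACTGCCA, and CCNE2 held 1 match that is not printed. A match is a description and not proof of a site.
AXL, chr19:41259939-41259963, plus strand: caagctaagCACTGCCactggggaa
MET, chr7:116796166-116796190, plus strand: tggttttttCACTGCCtgaccttta
MET, chr7:116798280-116798304, plus strand: gatacttgtCACTGCCtatacctgc
CDK6, chr7:92614037-92614061, minus strand: tctgccacaCACTGCCttgttggca
CDK6, chr7:92605944-92605968, minus strand: gtggaaattCACTGCCtgggacaca
LEF1, chr4:108048553-108048577, minus strand: aaagacaatCACTGCCaacccctct

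DDX21 mRNA was lower in the knockout line and was still present. The gene (9188, chromosome 10, GRCh38 positions 68956131 to 68985069) had 182 CPM in DDX21 KO and 588 CPM in H1299, a log2 ratio of -1.69 (-1.73 to -1.65). It was the only member called among the 50 entering DEAD-box and DEAH-box helicases, whose median log2 ratio was -0.10. Its neighbour and paralog DDX50 was at -0.26 (-0.34 to -0.18) and was not called. The reads cannot be placed relative to the edit, and protein was not measured here.

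The libraries held 32240536 estimated counts in DDX21 KO with miR-34a, 32991380 in H1299 with miR-34a, 26868358 in non-treated DDX21 KO and 36263145 in non-treated H1299. Depending on the library, 3 counts amounted to 0.0840 to 0.111 CPM. Of the markers of H1299 checked, the intermediate filament gene VIM stood at 1931 CPM in DDX21 KO and 2092 CPM in H1299, KRT18 at 1838 and 1122 CPM, and the mesenchymal cadherin CDH2 at 37.5 and 60.1 CPM. Of the 7 markers of the line only fibronectin, FN1, was called, at 22.6 CPM in DDX21 KO and 8.45 CPM in H1299. None of the 6 fibroblast, 6 haematopoietic or 5 alveolar and secretory markers entered, with summed levels of at most 1.34 CPM in any of these lists in DDX21 KO and 0.730 CPM in H1299. Of 5 endothelial markers only the receptor KDR entered, and PECAM1 and TEK were listed at 0 in both libraries.

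The lines differed in a minority of genes, and mostly in genes of low level. Under miR-34a, 544 genes were called higher in DDX21 KO (3.99% of all genes entering) and 403 lower (2.96%), and 175 of the higher and 89 of the lower ones differed 4-fold or more. The median log2 ratio of all genes was -0.01, with a standard deviation of 0.68. Of the genes with a mean of 50 to 200 counts 17.3% were called, of those with 200 to 1000 counts 4.77%, and of those above 1000 counts 1.09%. In H1299, 28 of the higher genes were listed at 0, and in DDX21 KO 12 of the lower genes were. Protein-coding genes made up 468 of the higher and 331 of the lower calls, and long non-coding RNAs 62 and 52. Another 10 and 17 of the calls fell on read-through loci, whose exons belong to adjacent genes too, so they are uncertain.

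**Figure D1:**
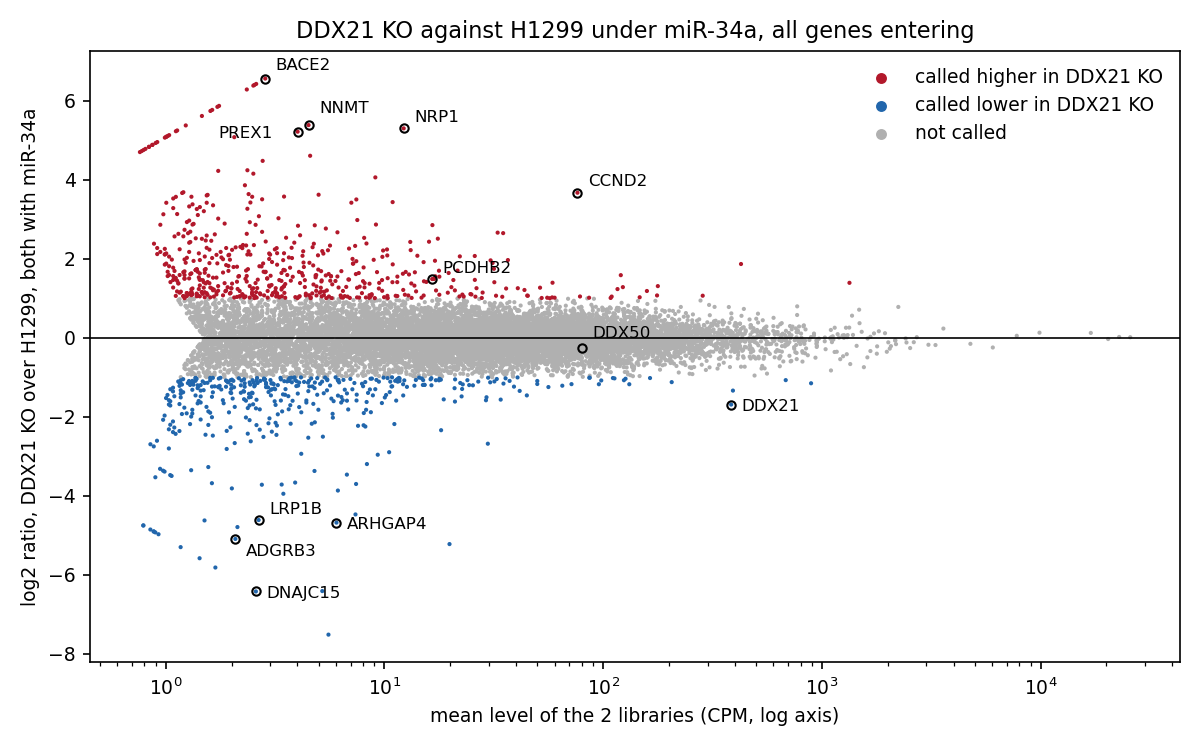
Log2 ratio of DDX21 KO over H1299, both with miR-34a (vertical axis), against the mean CPM of the 2 libraries on a log axis (horizontal), 1 dot per gene entering, with called genes in colour and 12 named genes circled. The calls spread to ratios above 6 and below -6 among genes under 10 CPM, whereas DDX21, far to the right, lies at -1.69.

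The same difference between the lines was measured in the non-treated libraries, where 516 of 13600 genes were called higher in DDX21 KO (3.79%) and 374 lower (2.75%). Of 13257 genes that entered both comparisons, 454 were called higher under miR-34a (3.42%) and 487 without it (3.67%), and 304 were called higher in both, which is 66.96% of the calls with miR-34a and 62.4% of those without. On the low side 344 genes were called with miR-34a (2.59%) and 301 without (2.27%), and 155 were shared, 45.1% and 51.5% of the lists. The sign of the ratio was the same without miR-34a for 93.4% of the higher and 93.0% of the lower genes. The genes called lower had a median log2 ratio of -1.30 with miR-34a and -0.93 without, and those called higher had medians of 1.55 and 1.39. Across genes, which are not independent replicates, the 2 ratios had a Pearson r of 0.75 and a Spearman coefficient of 0.66. Only 8 genes were called in opposite directions, 1 higher and 7 lower with miR-34a, and 3 of these were read-through loci.

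**Figure D2:**
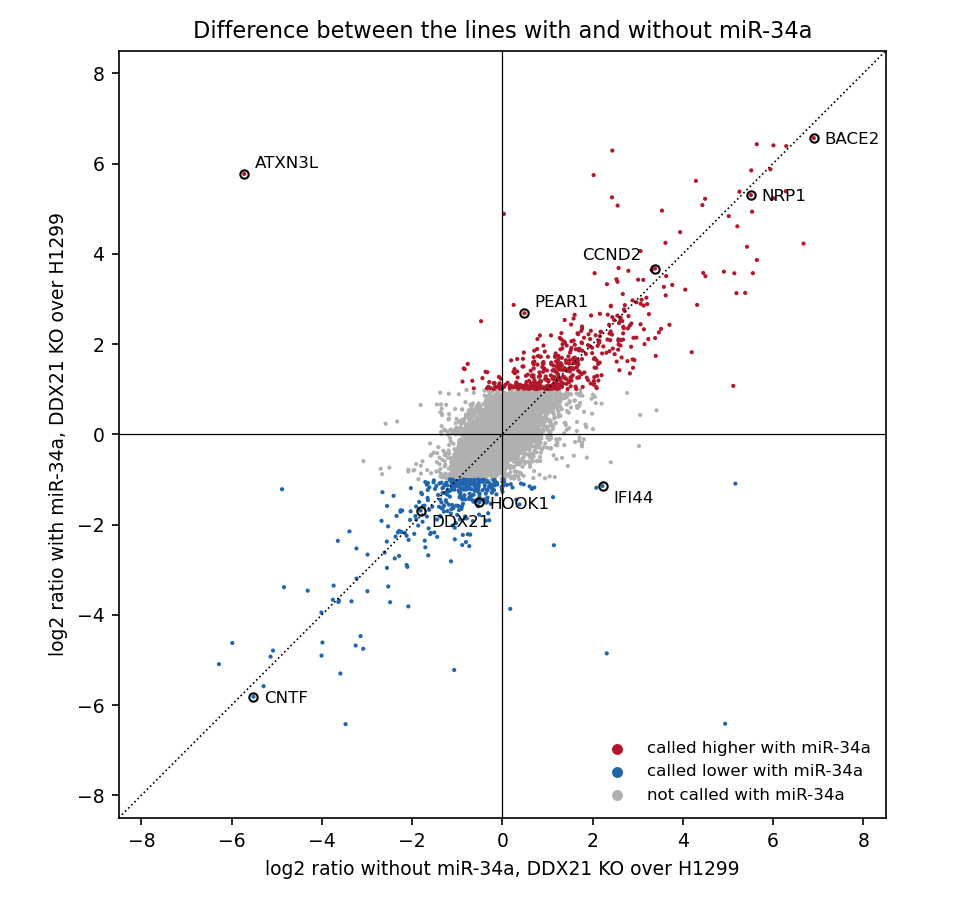
Log2 ratio of DDX21 KO over H1299 with miR-34a (vertical axis) against the same ratio without it (horizontal), 1 dot per gene entering both comparisons, coloured by the call with miR-34a, with the dotted line at equal ratios. Most called genes lie at the lower left and upper right, while ATXN3L lies at the upper left and IFI44 at the lower right.

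The 12 genes highest in DDX21 KO under miR-34a had at most 18 counts in transfected H1299. BACE2, an aspartic protease of the cell surface (gene 25825, chromosome 21, 41168160 to 41282530), had 187 counts in DDX21 KO and was listed at 0 in H1299, at least 62.5-fold higher against a floor of 3 counts. Without miR-34a it had 204 and 0 counts. MFAP5, a glycoprotein of elastic microfibrils, had 170 and 0 counts (84 and 0 without miR-34a), at least 56.9-fold higher. BAMBI, a pseudoreceptor that dampens TGF-beta signalling, had 167 and 0 counts (109 and 0), at least 55.9-fold higher. The scavenger receptor COLEC12 had 154 and 0 counts, and here non-treated H1299 was not empty, with 40 counts against 171 in non-treated DDX21 KO.

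KCNS3, a modulatory subunit of voltage-gated potassium channels, had 115 and 0 counts, at least 38.5-fold higher, and FOXF1, a forkhead factor of lung mesenchyme, stood at 3.45 CPM and was listed at 0 in H1299, at least 37.8-fold higher. NRP1, the co-receptor of semaphorins and VEGF (gene 8829, chromosome 10, 33177491 to 33334905), was the most strongly expressed of them, at 24.0 CPM in DDX21 KO and 0.547 CPM in H1299, a log2 ratio of 5.30 (4.78 to 6.21); without miR-34a it stood at 28.4 and 0.560 CPM. The netrin receptor UNC5B had 96 and 0 counts. NNMT, which methylates nicotinamide, stood at 8.85 and 0.152 CPM, and PREX1, an exchange factor that activates Rac, at 7.87 and 0.152 CPM. In each of these genes both DDX21 KO libraries lay above both H1299 libraries. The exceptions to clear counting in this group were ADORA2A, an adenosine receptor that shares exons with a read-through locus, and ATXN3L, a retrocopy of ATXN3. ATXN3L stood at 3.26 CPM in DDX21 KO and at 0 in H1299 with miR-34a, and at 0 and 3.30 CPM without, so it was the only one of the 12 that went the other way in non-treated cells.

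The 12 genes lowest in DDX21 KO had at most 13 counts in the transfected knockout line. DNAJC15, a co-chaperone of the mitochondrial inner membrane (gene 29103, chromosome 13, 43023586 to 43114213), was listed at 0 in DDX21 KO and had 170 counts in H1299, at least 56.5-fold lower; without miR-34a it had 8 and 141 counts. The calcium-binding protein S100A16 had 0 and 77 counts, at least 25.6-fold lower. ADGRB3, an adhesion receptor coupled to G proteins, had 2 and 135 counts, a log2 ratio of -5.09 (-9.13 to -4.19). ARHGAP4, a GTPase-activating protein, was the best measured of the 12 lowest, at 0.397 CPM in DDX21 KO and 11.7 CPM in H1299, with a log2 ratio of -4.68 (-5.80 to -4.09). All of these had the same direction in the non-treated libraries.

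Ligands and receptors also stood among the lowest genes. The growth factor PDGFD had 3 and 137 counts, a log2 ratio of -4.79 (-7.80 to -3.93), and LRP1B, of the LDL receptor family, had 5 and 170 counts, -4.61 (-6.72 to -3.83). The Wnt inhibitor TMEM88 had 0 and 59 counts, the metalloprotease ADAMTS1 0 and 52, and the prostaglandin F receptor PTGFR 0 and 52. KLHL32, with 0 and 61 counts under miR-34a, differed less without it, at 17 and 48 counts. CNTF, a neurotrophic cytokine with 0 and 111 counts, shares exons with the read-through locus ZFP91-CNTF, which had 165 counts in DDX21 KO and 0 in H1299. CNTF is therefore uncertain.

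**Figure D3:**
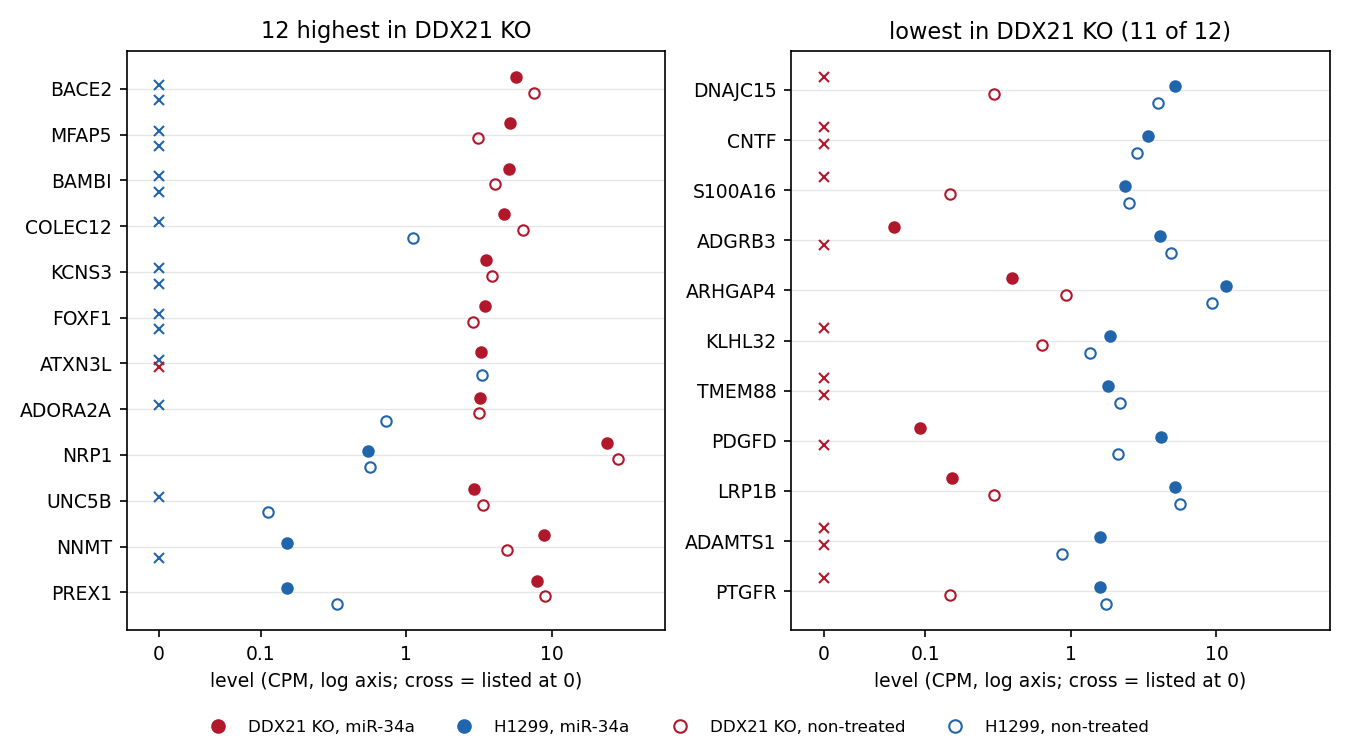
Level in CPM on a log axis (horizontal) of the 12 highest genes and 11 of the 12 lowest genes under miR-34a, in DDX21 KO and H1299 with miR-34a (filled) and non-treated (open), where a cross marks a gene listed at 0. The lines separate in all 23 genes under miR-34a, and in 22 of them in the same direction without it.

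Some calls were seen under miR-34a and not in the non-treated pair. Of the higher genes 71, and of the lower genes 77, were not called without miR-34a and lay within 1.5-fold there. PEAR1, a receptor first described in platelets, stood at 4.82 CPM in DDX21 KO and 0.699 CPM in H1299 with miR-34a, and at 5.53 and 3.92 CPM without it, so the transfected H1299 library was the low one of the 4. The same held for the cyclin CCNA1, at 6.38 and 2.01 CPM with miR-34a and 6.65 and 5.80 CPM without, and for the histone deacetylase HDAC4, at 13.7 and 5.20 CPM with miR-34a and 12.6 and 10.0 CPM without. RTL5, a gene derived from a retrotransposon, showed another order: transfected DDX21 KO was the high library, at 8.30 CPM, against 3.01 CPM in transfected H1299 and 3.86 and 3.19 CPM in the non-treated lines. The remaining leading genes of this kind on the high side were LRP2BP, at 2.51 (1.83 to 3.65), and ZNF729, at 1.67 (1.29 to 2.13).

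On the low side of that group, transfected H1299 was the high library for the lipid carrier APOE. It stood at 11.8 CPM in DDX21 KO and 33.2 CPM in H1299 with miR-34a, and at 10.5 and 15.1 CPM without, with a log2 ratio of -1.48 (-1.66 to -1.32) under miR-34a. HOOK1, a linker of cargo to microtubules, was at 15.2 and 43.4 CPM with miR-34a and at 22.8 and 32.4 CPM without. SLC16A5, a transporter of the monocarboxylate family, was at -1.59 (-1.94 to -1.29), CACNG6, a calcium channel subunit, at -1.78 (-2.43 to -1.28), the kinase BRSK1 at -1.91 (-2.93 to -1.24) and NAALADL2 at -1.75 (-2.45 to -1.22). Whether these differences depend on miR-34a was not tested, since each state had 1 library per line.

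Adhesion genes were called mostly on the high side. Of 43 entering cadherins and protocadherins 16 were called higher (37.2%, against 3.99% of all genes) and 2 lower, and the median log2 ratio was 0.74 with miR-34a and 0.39 without. With 50 or more counts in both libraries 30 entered, 5 of them were higher (16.7%, against 1.94% of all genes in that setting) and 1 was lower (3.33%, against 1.65%), and the median was 0.57. The clustered beta protocadherins of chromosome 5, which encode neuronal adhesion proteins from genes of a single exon, made up most of them. Of 12 PCDHB genes entering 11 were called higher and none lower, with log2 ratios from 0.64 to 2.46 and a median of 1.43; without miR-34a 10 were called higher and the median was 2.09. With 50 or more counts in both libraries 5 PCDHB genes entered and 4 were called higher. PCDHB9 had 86 counts in DDX21 KO and 14 in H1299 (81 and 16 without miR-34a), and PCDHB12 stood at 3.75 and 0.730 CPM (2.27 and 0.448 CPM). PCDHB2, named after its values were seen as the one with the most counts, had 800 and 285 counts (591 and 333 without miR-34a). These genes are close copies of each other, so reads could be split between them.

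The promoters of the PCDHB genes are shown because the members moved together. All 14 PCDHB promoters in the RefSeq table (250 bases before to 50 after the start, GRCh38.p14, plus strand of chromosome 5) were searched for the 8 letters they share most widely. GGTGGCGC and GTGGCGCT, which overlap to GGTGGCGCT, were each in 13 of the 14, whereas GGTGGCGCT on either strand was in 0.524% of 27305 promoters; GGTGGCGC alone was in 2.27%. The match is in capitals, the first line gives the whole window of PCDHB10, and the others give 10 bases on each side.
PCDHB10, chr5:141192103-141192402: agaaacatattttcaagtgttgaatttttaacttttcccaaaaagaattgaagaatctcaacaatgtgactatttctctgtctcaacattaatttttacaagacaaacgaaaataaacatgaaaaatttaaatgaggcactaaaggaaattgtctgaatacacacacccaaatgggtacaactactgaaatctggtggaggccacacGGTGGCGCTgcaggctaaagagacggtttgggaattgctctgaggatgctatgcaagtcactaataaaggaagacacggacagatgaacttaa
PCDHB9, chr5:141187075-141187103: gaagccacaaGGTGGCGCTgcagactgaa
PCDHB12, chr5:141208644-141208672: ggagacgcgtGGTGGCGCTgcaggataat
PCDHB2, chr5:141094545-141094573: agagacgcggGGTGGCGCTgcagccttag

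The other clustered protocadherins held fewer calls. Of 16 entering PCDHG genes 3 were called higher and none lower, with a median of 0.73 with miR-34a and 0.12 without, and of 3 entering PCDHA genes PCDHAC1 was called, at 2.24 (1.77 to 2.87). Genes of these clusters share their last exons, so single members are uncertain. Outside the clusters 2 protocadherins were called lower: PCDH7 had 17 counts in DDX21 KO and 240 in H1299, -3.67 (-4.62 to -3.11), and PCDH9 had 57 and 259, -2.14 (-2.62 to -1.76). Both had similar ratios without miR-34a, at -3.76 and -2.28. DSC2, a desmosomal cadherin, was at -0.79 (-0.97 to -0.62) and was not called.

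Mesenchymal and matrix genes were more often called higher than lower. Of 16 entering mesenchymal genes 8 were higher (against 3.99% of all genes) and 1 lower, with a median of 0.61 (4 of the 8 were also higher without miR-34a). Of 44 entering collagens, laminins and other matrix proteins 10 were higher (22.7%) and 2 lower (4.55%, against 2.96%), with a median of 0.28. With 50 or more counts in both libraries 4 of 12 mesenchymal genes and 8 of 40 matrix genes were higher (against 1.94% of all genes in that setting). The gelatinase MMP2 stood at 5.13 CPM in DDX21 KO and 0.395 CPM in H1299, 3.51 (2.88 to 4.64), and the transcription factor SNAI2 at 2.23 and 0.365 CPM, 2.43 (1.72 to 3.63). VCAN, a large proteoglycan, stood at 58.5 and 14.9 CPM, 1.97 (1.83 to 2.12), and SPARC, which binds collagen, at 2.47 and 0.547 CPM, 2.06 (1.42 to 3.00). Against that direction, the collagen cross-linking enzyme LOX was called lower, at 4.70 and 13.0 CPM, -1.46 (-1.75 to -1.20), as were COL13A1, at -2.23 (-2.61 to -1.92), and COL27A1, with 130 and 263 counts. The mesenchymal regulator ZEB2 was at -0.76 and CDH2 at -0.68, and neither was called. With 50 or more counts asked of both libraries the mesenchymal median was 0.14. Fibroblast markers did not enter, with 1.34 CPM in all in DDX21 KO and 0.730 CPM in H1299. Of 21 entering epithelial genes 2 were higher (9.52%, against 3.99% of all genes) and 1 lower (4.76%, against 2.96%). The higher ones were the desmosome protein DSP, at 2.06 (1.88 to 2.26), and the keratin KRT80, at 1.75 (1.60 to 1.90).

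Targets of TGF-beta and YAP were higher where they were called. Of 29 entering 6 were called higher (20.7%, against 3.99% of all genes) and none lower, with a median log2 ratio of 0.28 with miR-34a and 0.39 without, and all 6 were called higher in both states. THBS1, a matrix glycoprotein that activates TGF-beta, stood at 670 CPM in DDX21 KO and 184 CPM in H1299, 1.87 (1.83 to 1.91). The YAP target ANKRD1 stood at 181 and 60.1 CPM, and the TGF-beta targets PMEPA1 and TGFBI were at 1.46 (1.22 to 1.73) and 1.05 (0.96 to 1.13). BAMBI, the pseudoreceptor given above, is also among them.

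Genes of cell signalling at the surface were called in both directions. Of 38 entering axon guidance genes 6 were higher (15.8%, against 3.99% of all genes) and 3 lower (7.89%, against 2.96%). With 50 or more counts in both libraries 2 of 30 were higher (6.67%, against 1.94%) and 1 lower (3.33%, against 1.65%). The higher ones included NRP1, UNC5B and UNC5D, which had 53 counts in DDX21 KO and was listed at 0 in H1299. The lower ones were the receptors ROBO2, at -2.27 (-3.12 to -1.69), NRP2, at -1.54 (-2.21 to -1.01), and EPHA4, at -1.43 (-1.91 to -1.03). Thus NRP1 and its paralog NRP2 differed in opposite directions, with NRP2 at 1.01 CPM in DDX21 KO and 3.04 CPM in H1299. Of 67 ion channel genes 14 were higher (20.9%, against 3.99% of all genes) and 4 lower (5.97%, against 2.96%), and 13 of the 14 were also higher without miR-34a. With 50 or more counts in both libraries 5 of 51 were higher and none was lower. The potassium channel KCNK5 had 81 and 0 counts, at least 27.1-fold higher, while the glutamate receptor subunit GRIN2D had 37 and 159 counts, -2.04 (-2.66 to -1.57). Of 62 G protein-coupled receptors 8 were higher (12.9%) and 5 lower (8.06%), and 3 and 4 of them were so without miR-34a too. With 50 or more counts in both libraries 4 of 52 were higher (7.69%) and 2 lower (3.85%). The adrenergic receptor ADRA2C stood at 15.8 and 3.77 CPM and the endothelin receptor EDNRA at 0.122 and 2.01 CPM.

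The called Wnt receptors were higher, while growth factors were called in both directions. Of 28 Wnt genes 5 were higher (17.9%, against 3.99% of all genes) and 1 lower (3.57%, against 2.96%). Where both libraries reached the minimum for entry, 4 of 26 were higher (15.4%, against 1.94% of all genes in that setting) and none lower. The receptor FZD7 stood at 21.0 CPM in DDX21 KO and 6.60 CPM in H1299, and FZD9 at 5.71 and 1.92 CPM. ROR2 had 66 and 0 counts, at least 22.1-fold higher. The ubiquitin ligase ZNRF3, which removes Wnt receptors, was at 1.12 (0.77 to 1.51), and the nuclear Wnt effector LEF1 at 1.72 (1.30 to 2.23). The ligand WNT2B was called lower from counts, at -1.66 (-2.39 to -1.10), but its deposited FPKM gave a log2 ratio of 0.023. Of 35 growth factor genes 6 were higher (17.1%, against 3.99%) and 4 lower (11.4%, against 2.96%). When both libraries had to reach the minimum, 3 of 29 were higher and 3 lower (10.3% each, against 1.94% and 1.65%). PDGFA stood at 13.7 and 1.16 CPM, 3.50 (3.09 to 4.09), and GDF15, a stress-induced cytokine, at 3.69 and 0.699 CPM, whereas the stem cell factor KITLG stood at 4.61 and 12.2 CPM. Platelet-derived growth factors thus went both ways, PDGFA higher and PDGFD lower. KDR, a VEGF receptor, was called higher at 5.77 and 1.64 CPM. The 5 endothelial markers, KDR included, summed to 6.10 CPM in DDX21 KO and 1.70 CPM in H1299.

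**Figure D4:**
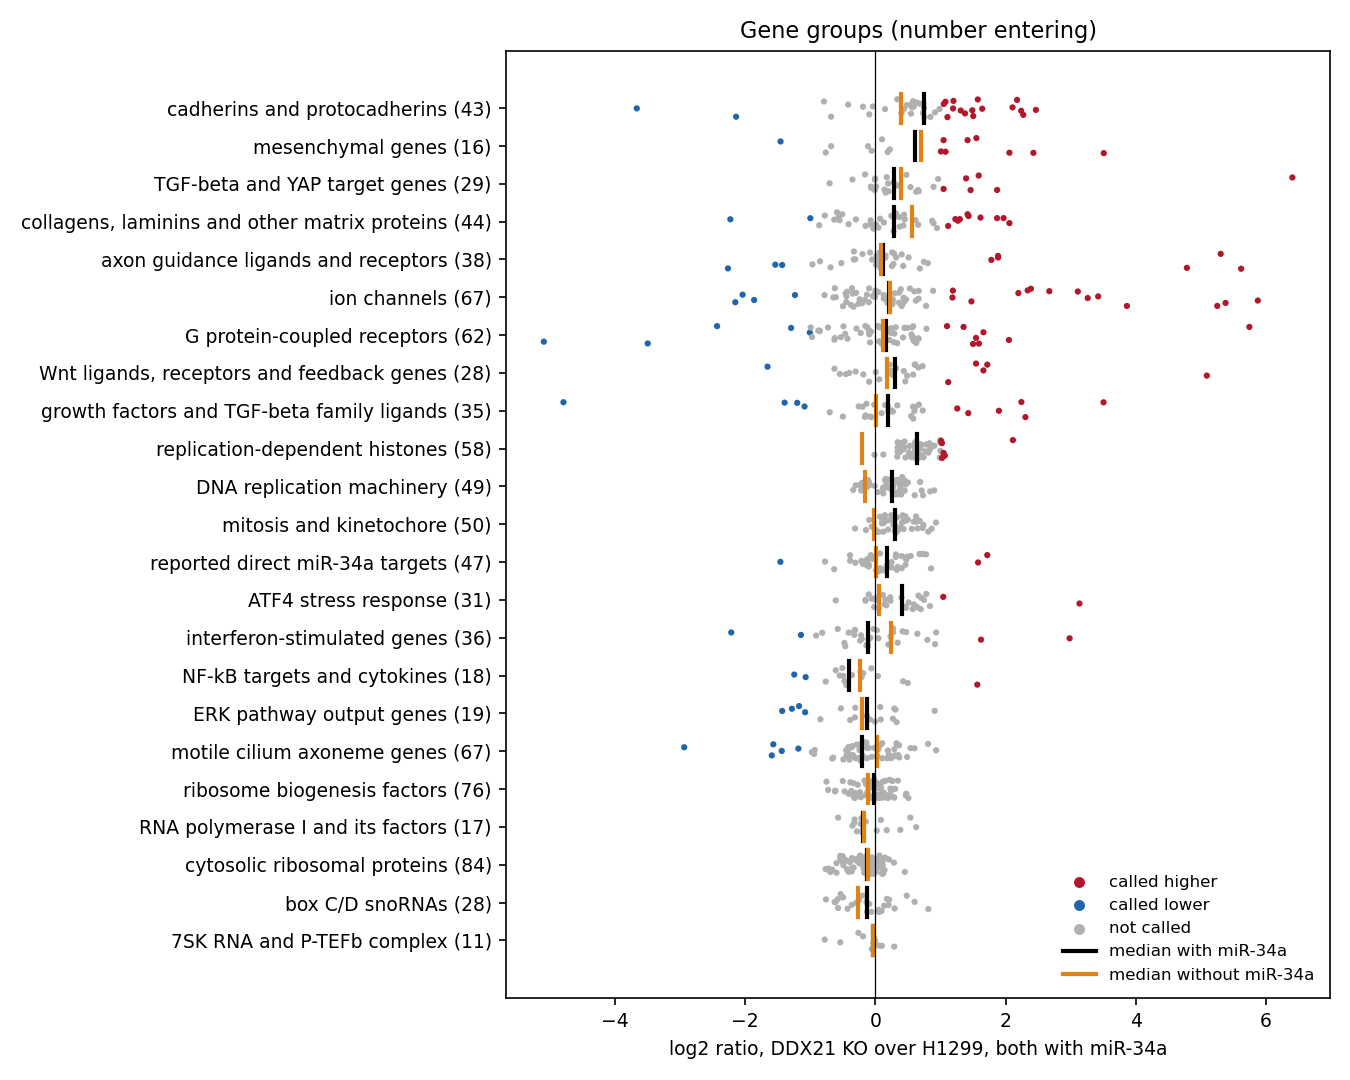
Log2 ratio of DDX21 KO over H1299 under miR-34a (horizontal axis) for every entering member of 23 gene groups (rows, with the number entering), 1 dot per gene coloured by call, with the group's median with miR-34a in black and without it in orange. The replication-dependent histones lie almost wholly above 0 while their median without miR-34a is below 0, and ribosome biogenesis factors and ribosomal proteins hold no called gene.

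Under miR-34a histone genes stood higher in DDX21 KO, most of them by less than 2-fold, and few passed the call. Of 58 entering replication-dependent histones 57 were above 0 and 6 were called higher, with a median log2 ratio of 0.64; without miR-34a 6 of 58 stood higher in DDX21 KO, none was called, and the median was -0.21. Summed over the list, histone mRNAs stood at 6340 CPM in DDX21 KO and 4070 CPM in H1299 with miR-34a, and at 10144 CPM in DDX21 KO and 11874 CPM in H1299 without it, so both transfected libraries lay below both non-treated ones. H1-4, a linker histone, stood at 386 and 184 CPM with miR-34a, 1.07 (1.02 to 1.11), and at 568 and 587 CPM without. H3C4 stood at 78.4 and 38.6 CPM, and at 153 and 184 CPM without miR-34a. Copies of histone genes are near identical, so single genes are uncertain. With the median of each gene's 20 Mb window subtracted, 2 histones were called in place of 6 and their median was 0.58.

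Genes of DNA replication and mitosis were mostly above 0 and not called. None of 49 DNA replication genes was called, 36 were above 0 and 13 below, and their median was 0.25 with miR-34a and -0.16 without. The histone chaperone ASF1B had the lowest ratio, -0.34 on the log2 scale. The helicase subunit MCM5 had the highest ratio, 0.90 (0.82 to 0.99), at 94.7 CPM in DDX21 KO and 50.7 CPM in H1299. Of 14 enzymes of deoxynucleotide synthesis 8 were above 0 and 6 below, with a median of 0.06 with miR-34a and -0.15 without. Thymidylate synthase, TYMS, was called higher with 2493 counts in DDX21 KO and 1248 in H1299, a ratio just past 2-fold, and stood at 119 and 135 CPM without miR-34a. None of 50 mitotic genes was called, 46 were above 0, and their median was 0.30 with miR-34a and -0.02 without. SPC25, of the kinetochore, was at 0.93 (0.69 to 1.19) and TOP2A, on chromosome 17, at -0.31 (-0.36 to -0.27). None of 29 genes of homologous recombination and the Fanconi pathway was called, with medians of 0.15 and -0.27.

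Among G1 regulators the largest difference was in CCND2, a D-type cyclin that activates CDK4 and CDK6 (gene 894, chromosome 12, 4273762 to 4305353). CCND2 had 4640 counts in DDX21 KO and 363 in H1299 with miR-34a, a log2 ratio of 3.67 (3.53 to 3.84), and 3682 and 465 counts without. The paralog CCND1 was at -0.39 (-0.43 to -0.35) and was not called. CDKN1C, an inhibitor of cyclin-dependent kinases, was higher at 2.59 and 0.487 CPM, 2.28 (1.63 to 3.28), and the E-type cyclin CCNE2 was lower at 6.47 and 17.9 CPM, -1.46 (-1.70 to -1.24). These were the 3 called of 32 entering G1 genes, whose median was 0.11. Of the 32, 2 were higher (6.25%, against 3.99% of all genes) and 1 lower (3.125%, against 2.96%). When both libraries had to reach the minimum for entry, 1 of 31 was higher and 1 lower (3.23% each, against 1.94% and 1.65%).

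Reported direct targets of miR-34a were called about as often as all genes. Of 47 entering 2 were called higher (4.26%, against 3.99% of all genes) and 1 lower (2.13%, against 2.96%), and 31 were above 0 and 16 below, with a median log2 ratio of 0.17 with miR-34a and 0.00 without. AXL, the receptor tyrosine kinase whose site is printed above, stood at 448 CPM in DDX21 KO and 322 CPM in H1299, 0.48 (0.44 to 0.51), and was not called. MET, the receptor of hepatocyte growth factor, stood at 75.3 and 45.4 CPM, 0.73 (0.64 to 0.82), and CDK4 at 69.8 and 52.8 CPM, 0.40 (0.31 to 0.49). CDK6 stood at 317 and 302 CPM, 0.07 (0.03 to 0.11). Called higher were BCL2, which blocks apoptosis, at 6.38 and 2.10 CPM, 1.58 (1.20 to 2.02), and LEF1; both were also called higher without miR-34a, at 1.29 and 1.01. The target called lower was CCNE2, at -1.25 without miR-34a. SIRT1, E2F3, JAG1, MYC and NOTCH1 lay between -0.31 and 0.31, and the checkpoint ligand CD274 was at 0.85 (0.63 to 1.09).

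Gene groups of the known work of DDX21 were set against all genes, of which 3.99% were called higher and 2.96% lower. The share called in either direction was 17.3% at a mean of 50 to 200 counts, 4.77% at 200 to 1000 and 1.09% above 1000. Among snoRNAs low counts occur, as in SNORD5, with 38 counts in DDX21 KO and 66 in H1299. None of 76 ribosome biogenesis factors, 17 RNA polymerase I genes, 84 cytosolic ribosomal proteins, 28 box C/D snoRNAs or 11 genes of the 7SK and P-TEFb complex was called, and their medians were -0.02, -0.20, -0.13, -0.13 and -0.03. The range of the biogenesis factors ran from FTSJ3, a methyltransferase of pre-rRNA on chromosome 17, at -0.75 (-0.82 to -0.69), to NOP58, a core protein of box C/D snoRNPs, at 0.51 (0.45 to 0.57). TTF1, the terminator of polymerase I, was at -0.57 (-0.69 to -0.46) and POLR1G, a polymerase I subunit, at 0.62 (0.52 to 0.73). HEXIM1, the inhibitor of P-TEFb within the 7SK complex, was at -0.78 (-0.94 to -0.63) and also lies on chromosome 17. Of 29 box H/ACA snoRNAs 1 was called in each direction (3.45% each), SNORA5A at 1.14 (0.75 to 1.58) and SNORA79B at -1.09 (-1.84 to -0.48). Small RNAs of this length are recovered unevenly by a total RNA library, and the level of ribosomal RNA itself was not measured after its depletion. None of 27 genes of microRNA processing and silencing was called, with a median of -0.13.

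Stress and interferon genes held 2 calls per direction at most. Of 31 targets of the stress factor ATF4 2 were higher (6.45%, against 3.99% of all genes) and none lower, NUPR1 at 2.07 CPM in DDX21 KO and 0.182 CPM in H1299 and STC2 with 1151 and 560 counts, and the median was 0.40 with miR-34a and 0.06 without. Of 36 interferon-stimulated genes 2 were higher and 2 lower (5.56% each, against 3.99% and 2.96% of all genes), with a median of -0.11, whereas without miR-34a 7 were higher, none was lower, and the median was 0.23. IFI16, a DNA sensor, stood at 13.4 and 1.64 CPM, 2.98 (2.62 to 3.46), and SAMD9L at 18.4 and 5.93 CPM. LGALS3BP stood at 2.81 and 13.3 CPM with miR-34a, and at 1.52 and 2.63 CPM without. IFI44 had 53 counts in DDX21 KO and 120 in H1299 with miR-34a, -1.14 (-1.67 to -0.70), against 59 and 15 without, and was the only interferon-stimulated gene called in opposite directions in the 2 states.

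Targets of NF-kB, output genes of ERK and motile cilium genes held more calls on the low side than on the high side under miR-34a. Among 18 targets of NF-kB and cytokines, whose median was -0.40, 2 genes were lower (11.1%, against 2.96% of all genes) and 1 was higher (5.56%, against 3.99%): TRAF1 stood at 33.3 CPM in DDX21 KO and 79.1 CPM in H1299, BIRC3, an inhibitor of apoptosis, at 440 and 926 CPM, and the cytokine CSF1 at 1.65 and 0.517 CPM. Of 19 output genes of the ERK pathway 4 were lower and none higher (21.1% against 2.96% of all genes), with a median of -0.13. The ERK phosphatase DUSP6 stood at 44.0 and 99.3 CPM, -1.17 (-1.27 to -1.09), and DUSP5 at 62.9 and 133 CPM, -1.08 (-1.16 to -1.01); both were also lower without miR-34a, at -1.31 and -1.65. The immediate early factor EGR1 was at -1.28 (-1.77 to -0.87). With the window medians subtracted 2 ERK genes and no NF-kB gene were called lower. The windows of DUSP6 and DUSP5 had medians of -0.41 and -0.13, and the subtraction took both genes under the 2-fold limit. Of 67 motile cilium genes 5 were lower (7.46%, against 2.96% of all genes), no member was called higher, and the median was -0.20. Where both libraries reached the minimum for entry, 1 of 59 was lower (1.69%, against 1.65% of all genes in that setting) and none higher. The low-side share was thus near that of all genes there. Of the 67 genes, the 51 that entered both comparisons had a median of -0.18 with miR-34a and 0.03 without. Without miR-34a 4 of the 67 were called higher and 2 lower, 1 of these also lower with miR-34a, and with window medians subtracted 7 were lower. Among those called lower were AK7 at 0.915 and 7.42 CPM, -2.94 (-3.62 to -2.47), and DNAI4 at 4.00 and 10.9 CPM, -1.44 (-1.75 to -1.16). The 4 markers of ciliated epithelium summed to 468 CPM in DDX21 KO and 539 CPM in H1299, and none was called. Most of that sum was the tubulin TUBB4B, at 409 and 479 CPM. The marker FOXJ1, with 4 and 12 counts, did not enter.

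Chaperones, transporters and proteases of the cell surface also held calls. Of 37 entering heat shock proteins and chaperones 3 were higher (8.11%, against 3.99% of all genes) and none lower. All 3 were higher without miR-34a as well. The 34 that reached the minimum for entry in both libraries held no call. The small heat shock protein HSPB8 stood at 4.82 CPM in DDX21 KO and 0.213 CPM in H1299, 4.16 (3.42 to 5.84). The median of the list was -0.05. Of 33 amino acid and glucose transporters 5 were higher (15.2%, against 3.99% of all genes) and 1 was lower (3.03%, against 2.96%). Where both libraries reached the minimum for entry, 2 of 29 were higher (6.90%, against 1.94% of all genes in that setting) and none lower. The glutamate transporter SLC1A3 stood at 4.79 and 1.16 CPM and the glycine transporter SLC6A9 at 1.98 and 0.456 CPM. Of 43 surface proteases and their inhibitors 6 were higher (14.0%, against 3.99%) and 3 lower (6.98%, against 2.96%). When both libraries had to reach the minimum, 3 of 36 were higher (8.33%, against 1.94%) and 2 lower (5.56%, against 1.65%). ADAMTS15, which cleaves matrix proteoglycans, stood at 9.46 and 1.34 CPM, 2.77 (2.36 to 3.31). The granzyme B inhibitor SERPINB9 stood at 9.09 and 20.9 CPM, -1.19 on the log2 scale.

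Several smaller groups held a few calls each. Of 20 Notch pathway genes 2 were lower (10%, against 2.96% of all genes) and none higher. They were the ligand JAG2, at 1.65 CPM in DDX21 KO and 5.08 CPM in H1299, and the co-activator MAML3, at 2.56 and 5.20 CPM. Both were lower without miR-34a. Of 28 genes of class I antigen presentation and checkpoint ligands 2 were higher (7.14%) and 1 lower (3.57%). The higher ones were the NKG2D ligand ULBP1, at 20.5 and 9.73 CPM, and the class I activator NLRC5, at 4.18 and 1.95 CPM. The immunoproteasome subunit PSMB10 was lower at 9.24 and 21.2 CPM. PSMB10 was at -0.23 without miR-34a, where it was not called. Of 22 entering homeobox cluster genes 3 were higher (13.6%, against 3.99% of all genes) and HOXB13 was lower (4.55%, against 2.96%). Where both libraries reached the minimum for entry, 1 of 19 was higher (5.26%, against 1.94% of all genes in that setting) and none lower. With the window medians subtracted, 2 of the 22 were higher and none lower. The posterior gene HOXD13 stood at 5.10 and 1.95 CPM. FTH1, the heavy chain of ferritin, was the 1 higher gene of 23 NRF2 targets, at 220 and 96.8 CPM, 1.18 (1.13 to 1.25).

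Genes with zinc fingers, the largest list, were called less often than all genes in both directions. Of 457 entering genes with ZNF symbols 11 were called higher (2.41%, against 3.99% of all genes) and 7 lower (1.53%, against 2.96%), with a median of 0.05. ZNF711, which binds promoters of active genes, stood at 9.31 CPM in DDX21 KO and 0.699 CPM in H1299, 3.62 (3.12 to 4.41), and ZNF704 at 1.07 and 12.4 CPM, -3.47 (-4.08 to -3.04). ZNF385B stood at 4.58 and 0.578 CPM with miR-34a and at 1.78 and 0.924 CPM without. Among pro-apoptotic and anti-apoptotic genes of the BCL2 family, BIK was lower, at 1.74 and 4.38 CPM, and BCL2 was higher, as given above. The splicing factor MBNL3 was the 1 called of 59, at 8.42 and 2.71 CPM, 1.62 (1.29 to 2.00).

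Of the 57 gene lists, 18 held no called gene and 38 had a median within 0.2 of 0. More members were called higher than lower in 28 lists and lower than higher in 8. Mitochondrially encoded mRNAs, with 12 entering and none called, had a median of -0.29 with miR-34a and -0.65 without. Of 13 imprinted genes 3 were higher (23.1%, against 3.99% of all genes) and 1 lower (7.69%, against 2.96%). When both libraries had to reach the minimum for entry, 1 of 11 was higher and 1 lower (9.09% each, against 1.94% and 1.65%). Among the 13, NDN, a growth suppressor, had the highest ratio, at 8.85 CPM in DDX21 KO and 0.304 CPM in H1299, 4.61 (3.96 to 5.94). NDN had 229 and 6 counts without miR-34a.

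Ratios also differed by chromosome, and this was alike in both states. In 20 Mb windows with at least 20 genes, 24 of 154 had a median log2 ratio of -0.25 or below and 8 had one of 0.25 or above, and all 32 had the same sign without miR-34a. Over the windows the medians with and without miR-34a had a Pearson r of 0.95 and a Spearman coefficient of 0.92, as a description. Chromosome 13 had a median of -0.49 over 226 genes, chromosome 17 of -0.36 over 786 and chromosome 9 of -0.33 over 567. The 64 genes called lower on chromosome 17 were 8.14% of those entering there, against 2.96% of all genes, and 14 were called higher. Between 20 and 100 Mb on chromosome 17 the window medians ran from -0.43 to -0.60, while on chromosome 2 between 200 and 240 Mb they were 0.40 and 0.34. The window of 140 to 160 Mb on chromosome 5 held 27 of 127 genes called higher (21.3%), of which 15 were clustered protocadherins. DNA copy number was not measured here. Among the genes described above, DNAJC15 and PCDH9 on chromosome 13 and TRAF1, COL27A1 and TTF1 on chromosome 9 lie in windows with low medians. The same holds for DUSP6 and KITLG on chromosome 12, and for LGALS3BP, TOP2A, FTSJ3, HEXIM1, SLC16A5 and HOXB13 on chromosome 17. The part of the chromosome in the ratios of these genes was not tested. With the window medians subtracted, 525 genes were called higher and 315 lower, and chromosome 17 held 23 higher and 16 lower calls.

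**Figure D5:**
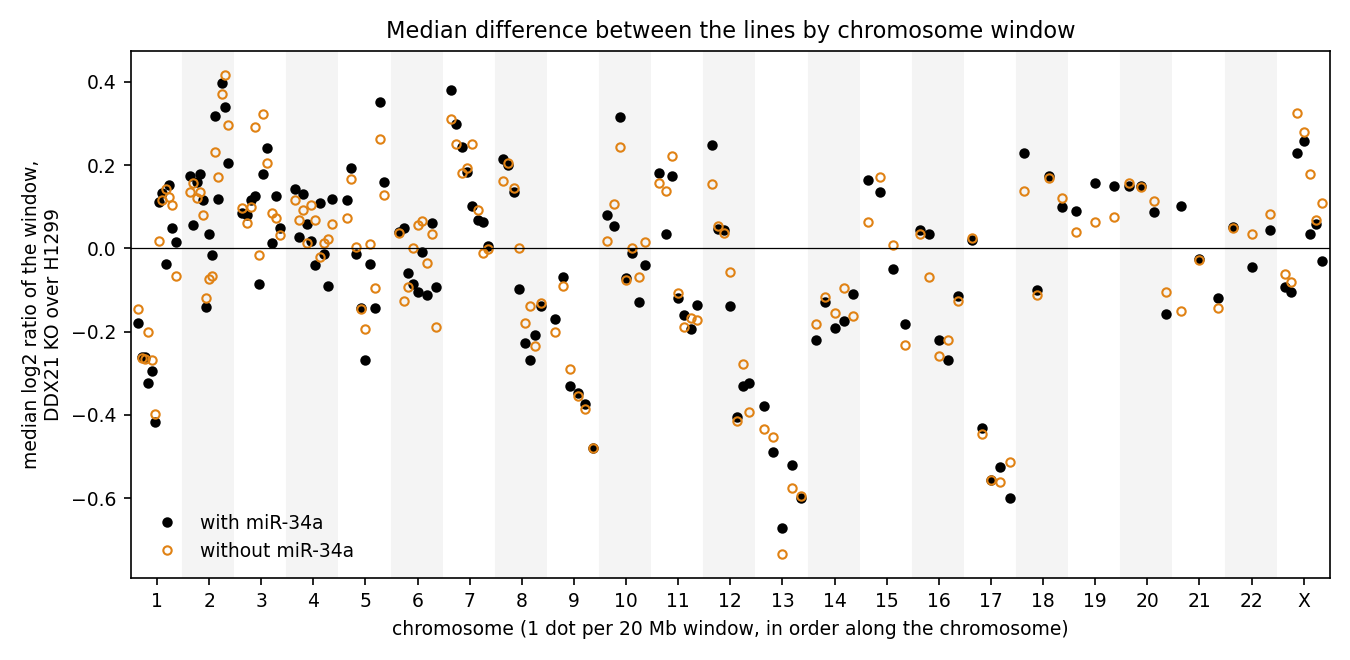
Median log2 ratio of DDX21 KO over H1299 in 20 Mb windows (vertical axis), in order along each chromosome (horizontal), with miR-34a (filled) and without (open). The 2 values lie close together in most windows, with the lowest on chromosomes 13 and 17.

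At the level of transcripts most calls fell on genes that were not called. The authors deposited 170322 transcripts, of which 41130 entered, and 9091 were called higher (22.1%) and 9037 lower (22.0%), of which 16959 belong to genes without a call. In 3125 genes transcripts were called in both directions, and 3041 of these genes were not called. Of 12831 called transcripts that entered both comparisons 33.7% had the same call without miR-34a and 24.3% the opposite one, against 57.5% with the same call among genes. A transcript level is an estimate of how shared reads divide among overlapping isoforms, so a swing between isoforms with an unchanged sum is uncertain.

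The 6 genes with the widest opposed transcripts show both kinds of pattern. In VIM the swing had the same direction in both states: NM_003380 had 0 counts in DDX21 KO and 62432 in H1299 (0 and 67016 without miR-34a), and XM_006717500 had 63290 and 6367 (46595 and 6572), while the gene as a whole was at -0.12. In HIPK2, a nuclear kinase, XM_011516081 had 971 counts in DDX21 KO and 0 in H1299 with miR-34a, but 12 and 2662 without. Its other named transcript, NM_001113239, was the lower one in DDX21 KO in both states, at 0 and 2899 counts with miR-34a and 105 and 1323 without. In LPP, of focal adhesions, NM_001375464 had 998 and 0 counts with miR-34a and 2 and 2064 without, while NM_001375460 had 0 and 2311 with and 0 and 261 without. In CCDC144A both named transcripts turned round between the states: XM_024451046 had 1227 and 0 counts with miR-34a and 0 and 2083 without, and NR_130142 had 0 and 1869 with and 1054 and 1 without. In HELZ, an RNA helicase, XM_011525544 had 1830 counts in DDX21 KO and 0 in H1299 with miR-34a, and 2 and 0 without. XM_006718903 of DYNC2H1, the dynein of intraflagellar transport, had 9550 counts in transfected H1299 and was listed at 0 in the other libraries. None of these 6 genes was called at the level of genes, where their log2 ratios ran from -0.75 to 0.05.

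The authors' deposited table of comparisons listed 908 genes. In it, 262 genes were higher and 147 lower in DDX21 KO than in H1299 under miR-34a with at least 2-fold and an unadjusted p under 0.05; 286 of these entered here and all 286 were called in the same direction, which is no independent support since both rest on the same counts. An adjusted p under 0.05 was given to 11 genes in the authors' deposited table. In that table NRP1 had a fold of 44.4 and an adjusted p of 0.0018, PREX1 a fold of 51.6 and 0.00252, and FAM20C, a kinase of secreted proteins, a fold of 64.1 and 0.00569. On the low side the authors' deposited table gave a signed fold of -28.6 and an adjusted p of 0.00896 for ARHGAP4, and -32.4 and 0.0119 for LRP1B. No source used here names the test behind these values, and with 1 library a group it compares libraries.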

How the data were processed

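Stranded libraries were made from total RNA after removal of ribosomal RNA, per the labels' protocols. GRCh38, TopHat2 2.0.9 and Bowtie2 2.0.6 are named in the submitters' processing notes, whereas no source used here gives the counting tool or its use of strand. The authors deposited estimated counts, FPKM and TPM per gene and per transcript, and, per the file headers, a table with a signed fold score and p-values for each pair of libraries. The deposited counts are whole numbers that behave as rounded estimates, so a 0 can be a failed assignment. Bounds printed as "at least" hold the 3 counts per library as the floor and leave out such failures and counting error.

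Counts were used as deposited, with library sizes scaled by TMM (edgeR 4.0.16, R 4.3.3). The log2 ratio used a prior count of 2, and its 95% interval is Clopper-Pearson, from each library's part of a gene's counts (SciPy 1.17.1). If a read pair counted as 2, the intervals are too narrow. With 1 library per group no test within a state is possible. A fit of line plus state over the 4 libraries (edgeR's quasi-likelihood test, 1 residual degree of freedom, Benjamini-Hochberg adjustment) was added after seeing the data, as were list counts among genes with 50 counts in both libraries. The functions were tested on simulated counts. Other settings were total counts, DESeq2 1.42.0 size factors, deposited FPKM plus 0.1, count minimums of 10 and 200, 50 counts in both libraries, a 4-fold or stricter call, protein-coding genes alone and, added after seeing the data, ratios minus the median of their 20 Mb window.

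The comparison, the 57 gene lists and the rule for named genes were chosen with earlier results of these data known. The rule took DDX21 and DDX50; the 12 highest and 12 lowest protein-coding genes by the interval bound nearest to 0, leaving out read-through loci, histones and unnamed loci; 6 per direction among genes called with miR-34a only; the called members or extremes of each list; 6 genes with opposed transcripts; and 13 reported miR-34a targets. PCDHB2, PCDHB10, FAM20C, ZFP91-CNTF and the markers KRT18, FN1, PECAM1, TEK, TUBB4B and FOXJ1 stand outside this rule and, the markers aside, were named after their values were seen. Some genes that the rule takes are not reported here. Pseudogenes and replacement histones were dropped from the lists after the data were seen.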

Additional observations from a re-analysis of the deposited data

Results flagged for a closer look

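Values that stood on opposite sides of 0 with and without miR-34a were set apart for a closer look: named genes called in opposite directions with 50 or more counts in either non-treated library, and lists of at least 5 genes with medians of at least 0.1 in size on both sides. None of these differences between the states was tested, since each state had 1 library per line. ATXN3L, a retrocopy of ATXN3, had a log2 ratio of DDX21 KO over H1299 of 5.77 with miR-34a and -5.72 without. The interferon-stimulated gene IFI44 had -1.14 with miR-34a and 2.22 without. The replication-dependent histones had a median of 0.64 with miR-34a and -0.21 without, DNA replication genes 0.25 and -0.16, and genes of homologous recombination and the Fanconi pathway 0.15 and -0.27. Interferon-stimulated genes had a median of -0.11 with miR-34a and 0.23 without, and HOX and other homeobox cluster genes 0.21 and -0.14.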

How the results depend on the processing

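The counts of calls followed the count minimum and the size asked for, and each of these settings changes how many genes are tested or what counts as a call. With a minimum of 10 counts 1257 genes were higher, 933 were lower, and 49.8% of the calls had the same call without miR-34a. With a minimum of 200 they were 215 and 172, and with 50 counts in both libraries 247 and 209 (46.3%). With the counting interval beyond 2-fold they were 328 and 202 (64.9%), and at 4-fold or more 175 and 89 (72.7%). Subtracting window medians, chosen after seeing the data, moved that share to 61.4%. For transcripts the calls were 15582 and 15313 with a minimum of 10, 3639 and 3818 with 200, and 2966 and 3026 with 50 counts in both libraries. Total counts, DESeq2 size factors and FPKM kept the gene and transcript counts within 1.5 times. Total counts and DESeq2 size factors moved the median of all genes by 0.03 and 0.01. The transcripts of DDX21 had log2 ratios of -0.60 (XM_011540336), -1.77 (NM_004728) and -0.93 (NM_001256910), against -1.69 for the gene.

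Of 212 named genes, WNT2B was the one called gene whose sign turned, at 0.023 on the FPKM scale; the cause was not tested. FPKM moved 53 others beyond their counting interval and window medians 61. Of 57 list medians 12 changed sign with window medians subtracted, 4 with FPKM, 4 with a minimum of 10, 3 with total counts, 2 with a minimum of 200 and 0 with DESeq2 size factors. Where genes at 0 enter, a list's median depends on the prior count.

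Within a state no pairing was possible, as each group had 1 library, and no replicate could be left out. Across states the lines were paired by state, as a replicate block, in edgeR's quasi-likelihood fit of line plus state, chosen after seeing the data, with 1 residual degree of freedom; it takes any state-dependent difference as spread and asks for no size. At an adjusted p under 0.05 it gave 1621 of 13621 genes higher and 1826 lower in DDX21 KO (434 and 255 of at least 2-fold). For DDX21 it gave -1.75. Among the genes passing were 433 of the 544 called higher and 280 of the 403 called lower with miR-34a. That overlap is no independent support, since the fit includes the 2 transfected libraries that made the calls. Genes under about 200 counts carry most calls, and there the spread between cultures is unknown.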
